A study of Homo sapiens with 4 samples.

Results

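Unannotated internal exons are stretches of RNA that a long-read transcript places between its first and its last exon and that share no base with an annotated exon of the same strand. They were collected from the transcripts that the submitters' annotation adds to annotated genes, and overlapping ones were merged within each gene into a locus. A locus was kept where no added transcript used it as a first or a last exon. Of 2331 unannotated exon loci in annotated genes, 910 were internal, in 702 genes and 789 added transcripts. The rest comprised 671 first-exon loci, 723 last-exon loci and 27 loci with mixed positions.

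The transcripts came from PacBio sequencing of full-length complementary DNA (Iso-Seq) of polyadenylated RNA. The cells were cortical neurons (i3N) made from the pluripotent line KOLF2.1J, which is an established human cell line. In the line used, doxycycline drives human NGN2 and a dCas9-BFP-KRAB repressor is always present, so all groups carried both. Before differentiation, stable pools had been made with a lentiviral guide and puromycin selection. The knockdown carried a guide against TDP-43, the azacytidine group received 5 µM 5-azacytidine for 72 hours, the combined group had that guide with the drug, and the control had neither. The protocol names a non-targeting guide as the alternative to the TDP-43 guide, but no label states the guide of the control or of the azacytidine library. Each group had 1 library, so every test below compares the reads of libraries and no difference has a replicate check. The protocol gives 2 possible harvest days and does not say which applied to a library.

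A cassette exon is an exon that can be joined into a messenger RNA or skipped together with its flanking intron sequence. When its length is a multiple of 3, its inclusion leaves the downstream reading frame in register, unless it holds a stop codon. TDP-43 is a nuclear RNA-binding protein known for keeping cryptic exons, which lie in introns and are normally ignored, out of neuronal transcripts. Neurons are also known for microexons, very short cassette exons that tend to preserve the reading frame. Azacytidine is incorporated into nucleic acids and inhibits DNA methylation.

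Depth ranged from 466337 reads assigned to genes with azacytidine, through 477622 with both treatments and 595158 in the control, to 767621 with the knockdown. TARDBP, which encodes TDP-43, had 104 reads in the control, 72 in the knockdown, 73 in the azacytidine and 43 in the combined library, or 175, 93.8, 157 and 90.0 CPM (reads scaled to the library total). All 15 neuronal markers were detected in each library, and their summed levels lay between 3780 and 4760 CPM. The 7 markers of dividing cells summed to 995 and 852 CPM without azacytidine and to 77.2 and 56.5 with it, and 5 progenitor markers to 753 and 594 against 172 and 132. Most of the progenitor difference was PAX6, with 487 and 408 against 6.43 and 8.37 CPM. SOX2, HES5 and VIM were also lower in each azacytidine library than in its counterpart. NES was lower with azacytidine alone (77.2 against 108) but higher with both treatments than with the knockdown (87.9 against 69). Pluripotency markers summed to 390 to 507 CPM, although NANOG and POU5F1 had 2 reads or fewer, and glial markers to 50.2 to 116.

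Of the 910 loci, 529 (58.1%) lay within the annotated span of their gene. In 366 (40.2%, 95% Wilson interval 37.1 to 43.4) the locus sat inside 1 annotated intron and the added transcript joined it to both annotated splice sites of that intron. These are called cassettes here. By position in GENCODE 29 transcripts, 213 cassettes lay in introns between coding exons, 60 in introns 5′ of the coding part, 8 in introns 3′ of it, 43 in noncoding transcripts and 42 in introns that GENCODE 29 lacks. Introns holding a cassette had a median length of 7956.5 bases, against 2854 bases for the 5281 annotated introns of the same genes. A longer intron offers more room for a locus, so this contrast is a description. In 158 of the 366 cassettes (43.2%) the locus lay in the first intron of an added transcript, which need not be the first intron of the annotated gene.

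The sequences that follow are reference messenger RNA at the point of insertion, shown for the loci on which the results turn. Each is 30 bases before and 30 bases after the annotated junction, 5′ to 3′ on the gene's strand (GENCODE 29, hg38), and the capitals are the 3 bases on either side that the unannotated exon separates. The first 5 belong to the loci called with the knockdown, and the remaining 3 to loci found in all 4 libraries.
EPB41L4A: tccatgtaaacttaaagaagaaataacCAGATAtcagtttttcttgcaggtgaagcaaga
HDGFL2: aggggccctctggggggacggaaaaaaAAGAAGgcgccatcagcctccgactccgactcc
UBASH3B: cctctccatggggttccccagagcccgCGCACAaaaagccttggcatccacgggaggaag
SEPTIN11: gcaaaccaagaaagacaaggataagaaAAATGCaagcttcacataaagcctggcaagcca
AARS1: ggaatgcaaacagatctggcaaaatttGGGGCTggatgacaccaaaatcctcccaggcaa
MAP7D2: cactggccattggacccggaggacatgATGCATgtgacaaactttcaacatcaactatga
ELMO2: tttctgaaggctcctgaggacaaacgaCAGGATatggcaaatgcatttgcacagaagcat
BICDL1: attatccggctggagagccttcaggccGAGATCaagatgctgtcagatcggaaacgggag
In EPB41L4A the insertion lies between exons 4 and 5 of 23, in AARS1 between exons 4 and 5 of 21, and in UBASH3B between exons 1 and 2 of 14. In SEPTIN11 it lies between the last pair, exons 9 and 10, and in HDGFL2 between exons 6 and 7 of a 7-exon transcript. In EPB41L4A, AARS1, UBASH3B and SEPTIN11 the junction splits a codon after its second base, and in HDGFL2 it falls between codons.

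The exons themselves could be read only where they lie inside a GENCODE 29 exon, which held for 32 of the 910 loci, 31 of them on the opposite strand of another gene. These stand at 29 distinct positions, and over all 910 loci 35 stand at a position also listed under another gene. All 32 were preceded by AG and followed by GT on their own strand, the letters that mark the ends of most human introns. One is in CELF3, which encodes a neuronal RNA-binding splicing regulator, and lies opposite an exon of RIIAD1. Its first 30 bases (chr1:151710852-151710881, minus strand, hg38) are shown because they hold a stop codon, in capitals, in the frame of the preceding coding exon.
CELF3: ttcctaTAAtactccccaccctggttaaga
The whole CELF3 locus of 186 bases held 2 such in-frame stops, so its length, a multiple of 3, does not make it open in that frame.

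The median length of the loci was 117 bases (interval 114 to 119), with an interquartile range of 86 to 165 and extremes of 10 and 4657 bases. The 5361 annotated internal exons of the same genes had a median of 122 bases (interval 120 to 123, interquartile range 86 to 163), slightly above that of the loci. Unannotated first exons had a median of 224 bases and unannotated last exons 1741. The shapes of the distributions differed: 164 loci (18%) measured 101 to 120 bases, against 708 annotated exons (13.2%), and 50 loci (5.50%) measured 141 to 160 bases, against 569 (10.6%). These classes were picked out after the lengths were seen. The commonest single length was 118 bases, with 19 loci. Loci over 1000 bases numbered 22 (2.42%), against 52 annotated exons (0.970%).

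**Figure D1:**
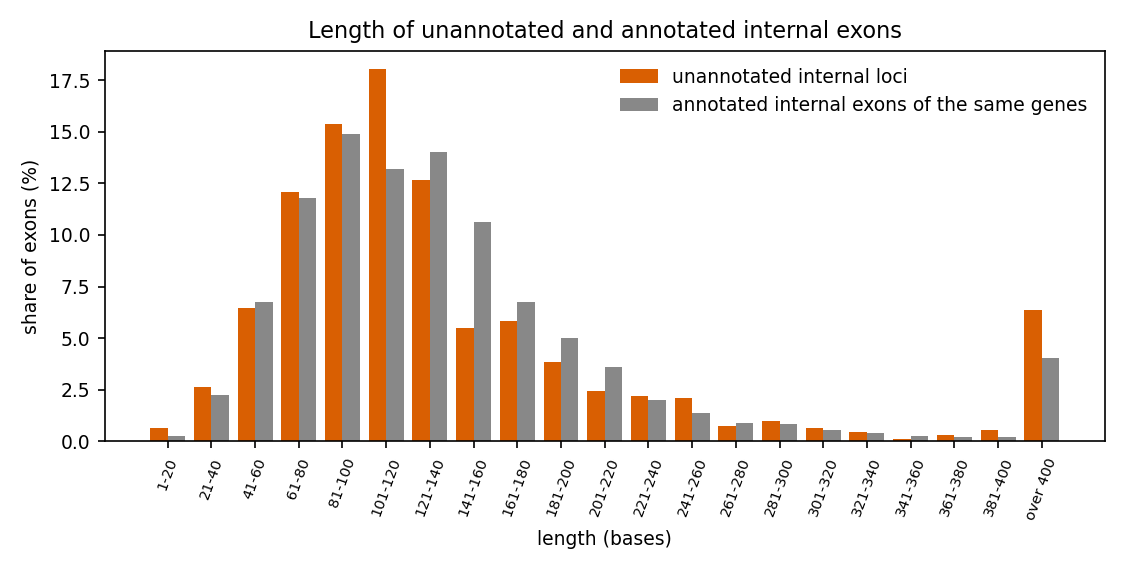
Share of exons (%) in each 20-base length class for the 910 unannotated internal loci and the 5361 annotated internal exons of the same genes, with all lengths over 400 bases in the last class. The class from 101 to 120 bases holds 18% of the loci and 13.2% of the annotated exons, and the class from 141 to 160 holds 5.50% and 10.6%.

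A length divisible by 3 occurred in 321 of the 910 loci (35.3%, 32.2 to 38.4), near the share that lengths without regard to frame would give. First-exon loci had 33.4% and last-exon loci 33.7%. Annotated internal exons of the same genes had 37.7% (36.4 to 39.0), and those that are wholly coding 39.9%. Among loci with at least 10 reads in total the share was 61 of 138 (44.2%, 36.2 to 52.5), and among the others 260 of 772 (33.7%, 30.4 to 37.1). Within coding introns the same split gave 34 of 69 (49.3%, 37.8 to 60.8) and 49 of 144 (34.0%, 26.8 to 42.1). The intervals of the last pair overlap, and exons are not replicates, so no test was made. Loci with at least 10 reads were also shorter, with a median of 102 bases against 118. All lengths are spans of merged loci, of which 897 of 910 had a single start and end.

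Most loci rested on few molecules. A count of 2 or fewer reads over all libraries lay behind 525 loci (57.7%), and 138 (15.2%) had at least 10. At least 1 full-length read was assigned to 909 of them. Reads came from a single library for 453 loci and from all 4 for 117. A single transcript carried 825 loci, and 285 shared their transcripts with another internal locus and so are not independent. Up to 10 loci fell in 1 gene, SPATA8.

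Reads of transcripts with an internal locus numbered 1044 in the control, 1283 in the knockdown, 1079 in the azacytidine and 1229 in the combined library. As shares of all transcript reads these were 0.275% (0.258 to 0.292), 0.286% (0.271 to 0.302), 0.340% (0.320 to 0.361) and 0.426% (0.403 to 0.451). The combined library was highest and the azacytidine library next, with intervals that do not overlap each other or those of the remaining libraries. By full-length reads, however, the intervals of the azacytidine library (0.438% to 0.518%) and the control (0.379% to 0.456%) overlap. The intervals cover counting error only. Without the loci called with the knockdown, an alternative chosen after the data were seen, the azacytidine and combined libraries had 0.340% and 0.391%, while the control (0.274%) stood above the knockdown (0.266%). The control also stood above the knockdown by uniquely assigned reads, by full-length reads and against the gene table, so the order of these 2 libraries depends on the measure. The full-length part of transcript reads was higher in each azacytidine library than in its counterpart (35.7% against 28.2% in the control, and 31.2% against 23.3% under the knockdown), and markers of dividing cells were lower. Their part in the result was not tested.

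The number of loci with reads was 434 in the control, 418 in the knockdown, 483 in the azacytidine and 377 in the combined library. At an equal depth of 90107 full-length reads, the expected numbers with a full-length read were 308, 263, 355 and 298. Before depth was equalised, the numbers with a full-length read were 350, 290, 418 and 298 in the same order. The combined library was thus above the knockdown library once only full-length reads were counted, already before depth was equalised. The azacytidine library held the most loci on each count. It also held the most loci found nowhere else, 169, against 130 in the control, 78 in the knockdown and 76 in the combined library. These last counts were not taken at equal depth, and the azacytidine library had the most full-length reads (113397). First-exon and last-exon loci were not counted by library here, so whether this order is particular to internal loci is not shown.

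Some loci were in most of the transcript reads of their gene. In 21 loci whose gene had at least 20 transcript reads in total, the locus was in at least 50% of them with the libraries pooled, and 5 of these lay in coding introns: MAP7D2, TSPAN11, BICDL1, CNGA3 and ST20-MTHFS. TSPAN11, CNGA3 and ST20-MTHFS are named after their values were seen. ST20-MTHFS rests on 1 library, with 1 of 5 reads in the control, 11 of 11 with the knockdown, 0 of 3 with azacytidine and 1 of 1 with both. CNGA3 had 1 of 6, 5 of 7, 9 of 16 and 11 of 23 reads in the same order, and TSPAN11 10 of 21, 10 of 19, 9 of 9 and 10 of 10. The shares are of reads that were assigned to transcripts. Against all reads of the gene in the gene table they were lower, at 46.5% to 78.1% for MAP7D2 and 30% to 45.8% for BICDL1 over the 4 libraries. MAP7D2 encodes a microtubule-associated protein, and its locus (chrX:20055734-20055832, minus strand) spans 99 bases, a multiple of 3. The locus merges 2 forms that differ in start or end, so whether each form is a multiple of 3 is not shown. The sequence of the locus was not read, so a stop codon in it is not excluded. Of the control's 34 transcript reads of the gene, 20 held the locus (58.8%), as did 25 of 28 with the knockdown (89.3%), 22 of 22 with azacytidine (100%) and 32 of 35 with both (91.4%). The control was the lowest library, and azacytidine differed from it (adjusted p = 0.0108, two-sided Fisher's exact test with Benjamini-Hochberg adjustment over 169 loci), but the combined library did not differ from the knockdown library (2.14 points, adjusted p = 1.00).

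BICDL1, a gene for an adaptor of the dynein motor, had a microexon of 12 bases (chr12:120062752-120062763, plus strand). It was in 11 of 17, 6 of 11, 9 of 16 and 12 of 24 reads with the libraries in the order control, knockdown, azacytidine and combined, which is kept below. The 4 shares, 64.7%, 54.5%, 56.2% and 50%, lay close together. Loci of 30 bases or fewer numbered 13 (1.43%, 0.837 to 2.43), against 54 annotated internal exons (1.01%), and only 4 of the 13 had at least 10 reads. Besides BICDL1 these were loci of 12 and 21 bases in MPP7, a gene for a cell polarity scaffold, and of 18 bases in ARL15, a gene for a small GTPase. The MPP7 pair shares its transcripts, with 2 of 10, 5 of 18, 9 of 10 and 5 of 6 reads. These genes were too shallow for the test.

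ELMO2 encodes a partner of DOCK proteins in Rac activation, and its locus of 36 bases (chr20:46382206-46382241, minus strand) lies in a coding intron at a codon boundary. It was in 16 of 42 reads in the control (38.1%), 17 of 52 with the knockdown (32.7%), 21 of 40 with azacytidine (52.5%) and 36 of 53 with both (67.9%). Both azacytidine libraries were higher than their counterparts, by 14.4 points without the knockdown (adjusted p = 1.00) and by 35.2 points with it (adjusted p = 0.00784, Fisher's exact test with Benjamini-Hochberg adjustment). The mean of these changes, 24.8 points, was 10 points against the gene table. MAP6, the gene of a microtubule-stabilising protein, had a locus of 48 bases with 13 of 73, 28 of 94, 16 of 111 and 22 of 87 reads. Its knockdown libraries were higher by 12.0 and 10.9 points, which did not pass the test (adjusted p = 0.428 and 0.372). In CELF3 the 4 shares were 29.8%, 35.2%, 30.3% and 36.4% (14 of 47, 19 of 54, 20 of 66 and 28 of 77 reads), and no pair differed in the test. The counting is not stated to use strand, so reads of CELF3 and RIIAD1 may not be separable at this position.

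**Figure D2:**
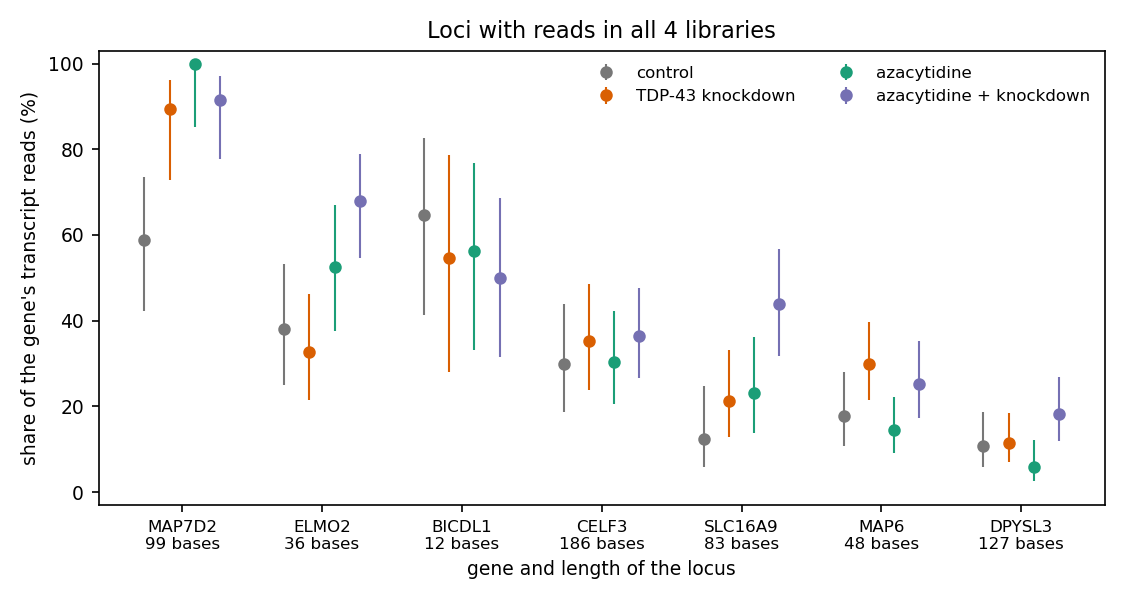
Share of the gene's transcript reads that carry the locus (%), in the 4 libraries, for 7 loci with reads in every library. Points are single libraries and bars are 95% Wilson intervals. The MAP7D2 locus lies between 58.8% and 100%, and the ELMO2 locus is highest in the combined library at 67.9%.

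SLC16A9 encodes a monocarboxylate transporter family member, and its locus of 83 bases lies in an intron 5′ of the coding part. It had 6 of 48, 13 of 61, 12 of 52 and 25 of 57 reads (12.5%, 21.3%, 23.1% and 43.9%), lowest in the control and highest with both treatments. The adjusted p for the change with azacytidine under the knockdown was 0.0727 (Fisher's exact test). DPYSL3, the gene of a collapsin response mediator protein of growing axons, had a locus of 127 bases with 10 of 93, 14 of 121, 6 of 103 and 18 of 99 reads. None of its pairs passed the test. Among loci of more than 1000 bases, NDUFB7, a subunit gene of respiratory complex I, had 3545 bases in 4 of 5, 4 of 4, 1 of 4 and 5 of 5 reads. CSNK1G2, a casein kinase gene, had 1006 bases in 3 of 17, 5 of 13, 0 of 16 and 7 of 16. These reads are too few to rank the libraries. CD163L1 (1832 bases) and TMEM168 (1058 bases) also had such loci with at least 10 reads, neither of them a cassette, and the next longest was in ENSG00000310272 (662 bases).

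Whether the knockdown changed internal loci was tested on the 75 with at least 10 reads whose gene averaged at least 20 transcript reads. Of these, 49 lay in coding introns and 16 in introns 5′ of the coding part. The knockdown was compared with the control, and the combined library with the azacytidine library, and a call required an adjusted p under 0.05 and a change of at least 10 percentage points, in 1 direction, in both pairs. By this rule 5 internal loci rose (6.67% of 75). None fell, with 6 loci higher and none lower when the p was left unadjusted in the same Fisher's exact test. Over all 169 tested loci 4.73% rose, so the share among internal loci is near the background. The same pairs with the second one reversed gave 0 calls, and 0 with the p left unadjusted, so no locus passed in opposite directions. A locus called with the knockdown cannot be called there, so this count is no control for the 5 calls. The median change of the 75 loci was 2.52 points in the first pair and 8.02 in the second, beside 0.595 and 4.00 over all 169. In 33 loci both pairs were higher with the knockdown, and in 10 both were lower. Loci with reads in the knockdown and combined libraries alone, such as EPB41L4A, passed the 10-read filter only through them and could only be higher. The counts of 33 and 10 therefore give no direction for internal loci as a whole, and those over all 169 are not given here.

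EPB41L4A encodes a member of the band 4.1 family of membrane-cytoskeleton proteins. Its locus of 75 bases (chr5:112267210-112267284, minus strand) was absent from the 24 control reads, so that its share is at most 12.5%, and from the 39 azacytidine reads (at most 7.69%). The knockdown library carried it in 23 of 39 reads (59.0%, 43.4 to 72.9) and the combined library in 19 of 26 (73.1%, 53.9 to 86.3). Adjusted p-values were 1.92e-05 and 3.01e-09 (Fisher's exact test with Benjamini-Hochberg adjustment). Against all reads of the gene in the gene table the shares with the knockdown were 36.5% and 42.2%, and the mean change was 39.4 points in place of 66. A length of 75 bases is a multiple of 3.

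HDGFL2 encodes a chromatin-binding protein of the hepatoma-derived growth factor family. Its locus of 138 bases (chr19:4492015-4492152, plus strand) had no read among 21 in the control and 29 with azacytidine, for shares of at most 14.3% and 10.3%. It had 8 of 20 with the knockdown (40.0%, 21.9 to 61.3) and 13 of 29 with both (44.8%, 28.4 to 62.5). Adjusted p-values were 0.0149 and 0.00121 (Fisher's exact test). The 2 knockdown libraries had similar shares, and the locus is again a multiple of 3. Its intron of 1867 bases was the shortest among the 5 called.

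UBASH3B encodes a tyrosine phosphatase that acts on receptor signalling. Its locus of 35 bases (chr11:122744155-122744189, plus strand), in a first intron of 120008 bases, does not keep the frame. No read held it among 33 in the control and 31 with azacytidine (at most 9.09% and 9.68%). It had 12 of 49 with the knockdown (24.5%, 14.6 to 38.1) and 14 of 25 with both (56.0%, 37.1 to 73.3), and adjusted p-values were 0.0149 and 3.24e-05 (Fisher's exact test). The combined library was 31.5 points above the knockdown library, which did not pass the test (adjusted p = 0.0727).

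SEPTIN11 encodes a septin, a GTPase that forms filaments at the membrane and is present at synapses. Its locus of 97 bases (chr4:77032457-77032553, plus strand) precedes the last annotated exon and shifts the frame. The control had it in 2 of 163 reads (1.23%, 0.337 to 4.36), and azacytidine alone in 0 of 130 (at most 2.31%). It reached 34 of 218 with the knockdown (15.6%, 11.4 to 21.0) and 39 of 115 with both (33.9%, 25.9 to 43.0), with adjusted p-values of 1.92e-05 and 4.26e-13 (Fisher's exact test). The combined library was above the knockdown library by 18.3 points (adjusted p = 0.00528, Fisher's exact test), while azacytidine alone was 1.23 points below the control (adjusted p = 1.00). SEPTIN11 had the most reads of the 5 genes and the only control reads with the locus.

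AARS1 encodes the cytoplasmic alanyl-tRNA synthetase. Its locus of 87 bases (chr16:70272796-70272882, minus strand) had no read among 56 in the control and 60 with azacytidine (at most 5.36% and 5.00%). It had 12 of 70 with the knockdown (17.1%, 10.1 to 27.6) and 13 of 99 with both (13.1%, 7.84 to 21.2). Adjusted p-values were 0.0149 and 0.0258 (Fisher's exact test), the largest in the second pair among the 5. It is a multiple of 3, so 3 of the 5 called loci are.

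**Figure D3:**
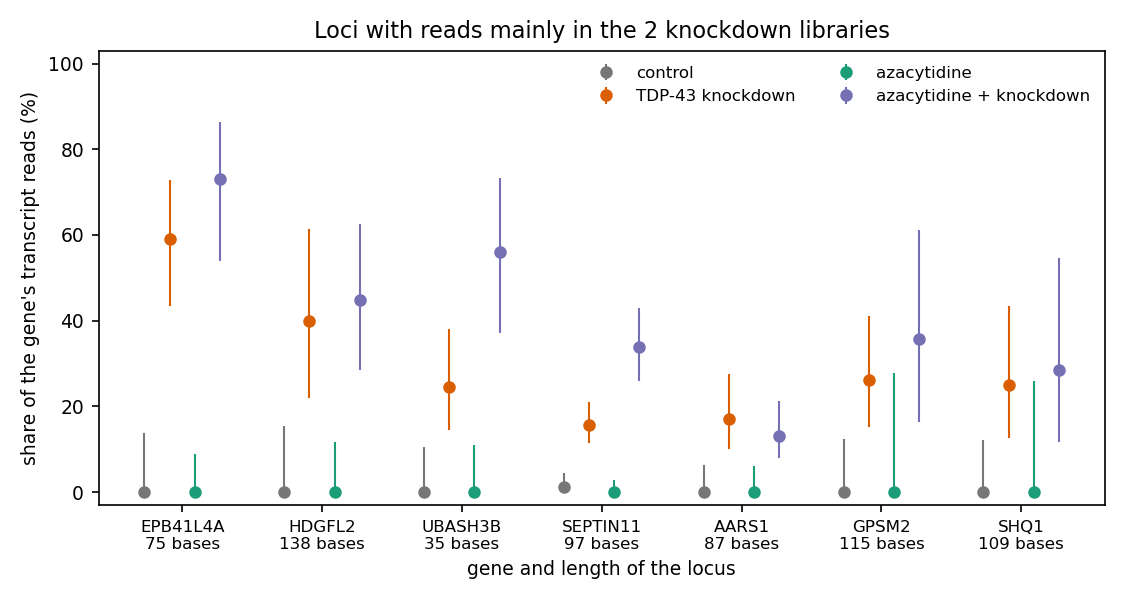
Share of the gene's transcript reads that carry the locus (%), in the 4 libraries, for the 5 loci called with the knockdown and for GPSM2 and SHQ1, which were not called. Points are single libraries and bars are 95% Wilson intervals. Without the knockdown the highest share is 1.23%, in SEPTIN11, and with it the shares run from 13.1% to 73.1%.

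Full-length reads were fewer. EPB41L4A had 3 with the knockdown and 4 with both, SEPTIN11 4 and 9, UBASH3B 3 and 4, AARS1 3 and 6, and HDGFL2 2 and 1. Without the knockdown 1 full-length read was assigned to these loci, in the SEPTIN11 control. An additive model over the 4 libraries (edgeR's quasi-likelihood test with Benjamini-Hochberg adjustment) gave adjusted p-values of 0.0105 for EPB41L4A and SEPTIN11 and 0.0360 for UBASH3B, and 0.0537 for AARS1 and 0.0615 for HDGFL2. In that model 2 of the calls, AARS1 and HDGFL2, ended. In all, 4 of the 75 internal loci had an adjusted p under 0.05 and 14 an unadjusted one, the fourth being ZNF423. Uniquely assigned counts left 27 internal loci to test and full-length counts 12, and neither gave a call, while counts that were not halved gave 9 calls. AARS1 and SEPTIN11 were still tested with uniquely assigned counts, with mean changes of 25.6 and 26 points, and were not called. SEPTIN11 was also tested with full-length counts, with a mean change of 22.6 points, and was not called.

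Further loci were higher with the knockdown in both pairs without passing in both, and not all of them were absent without it. GPSM2 encodes a protein that orients the mitotic spindle, and its locus of 115 bases (chr1:108896317-108896431, plus strand) was in 0 of 27, 11 of 42, 0 of 10 and 5 of 14 reads. The first pair passed (adjusted p = 0.0473, Fisher's exact test) and the second, with few azacytidine reads, did not (adjusted p = 0.359). SHQ1, a gene for an assembly factor of box H/ACA ribonucleoproteins, had a locus of 109 bases in 0 of 28, 7 of 28, 0 of 11 and 4 of 14 reads, and neither pair passed. PATL1, a gene for an mRNA decapping factor, had 0 of 19, 6 of 32, 1 of 14 and 4 of 16 reads at its locus of 74 bases. LHFPL4, which encodes a protein of inhibitory synapses, had 3 of 20, 9 of 25, 6 of 31 and 17 of 44 at a locus of 93 bases. Neither passed.

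ZNF423, which encodes a zinc-finger transcription factor and is named after its values were seen, differed between the knockdown libraries. Its locus of 63 bases (chr16:49640443-49640505, minus strand) was in 0 of 63 reads in the control, 4 of 76 with the knockdown (5.26%, 2.07 to 12.8), 0 of 57 with azacytidine and 24 of 42 with both (57.1%, 42.2 to 70.9). The second pair passed (adjusted p = 4.93e-10, Fisher's exact test) and the first did not (adjusted p = 0.451). The change in the first pair was also under the required 10 points.

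In the opposite direction, CBR4, a carbonyl reductase gene, had a locus of 84 bases in 10 of 21 reads in the control, 5 of 38 with the knockdown, 5 of 20 with azacytidine and 0 of 11 with both. It was lower by 34.5 and 25 points, and neither pair passed (adjusted p = 0.0521 and 0.527, Fisher's exact test). The mean change of -29.7 points was -12.5 points against the gene table. None of the other tested loci was lower by as much in both pairs.

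**Figure D4:**
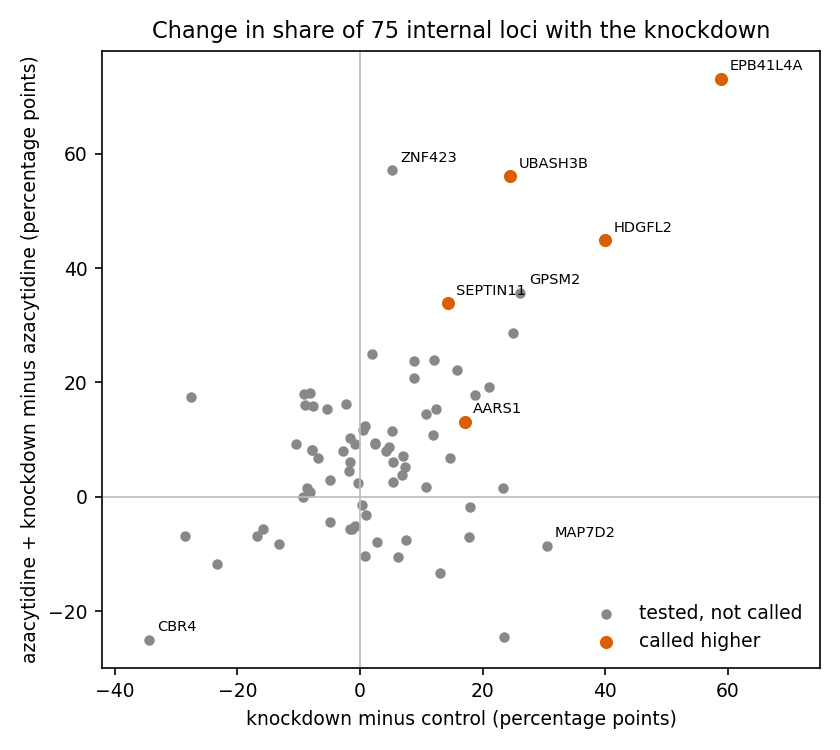
Change in the share of the gene's transcript reads (percentage points) for the 75 tested internal loci, in the knockdown against the control (horizontal axis) and in the combined against the azacytidine library (vertical axis). Each point is a locus, the 5 called ones are coloured, and 33 loci lie in the upper right quadrant against 10 in the lower left. Some of the 33, such as EPB41L4A, passed the read filter only through the knockdown and combined libraries.

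Genes with known or earlier seen TDP-43 exons were taken from a list of 33, drawn up with results of these data known, in which UBASH3B, SEPTIN11 and AARS1 stand because of them. The list therefore supports no direction. Of its 33 genes, 7 had an internal locus and 6 a tested one: the 5 called and GPSM2. The seventh, ACTL6B, encodes a subunit of the neuronal BAF chromatin remodeller, and its locus of 69 bases was in 0 of 5, 4 of 5, 1 of 17 and 6 of 10 reads, too few to test. The list's other genes, among them UNC13A and KALRN, had no internal locus by the rule.

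Loci were also counted by the libraries in which they occur, without a test. Loci with reads in exactly the knockdown and combined libraries numbered 46, close to the 47 of control and knockdown and the 46 of knockdown and azacytidine. With at least 3 reads in each, the number was 9 for the knockdown and combined libraries, 5 for knockdown and azacytidine, and 1 or 2 for each of the 4 remaining pairs. The cutoff of 3 reads was not among the planned settings, and the pairs differ in this way only with it. These 9 were EPB41L4A, HDGFL2, UBASH3B, AARS1, GPSM2, SHQ1, ZNF423, SLC39A14 and NADK2, the last 2 named after their values were seen. All 9 were cassettes, 8 in coding introns and SLC39A14, a zinc and manganese transporter gene, in an intron 5′ of the coding part. SLC39A14 had 4 of 33 reads with the knockdown and 6 of 25 with both, and NADK2, the mitochondrial NAD kinase gene, 6 of 38 and 4 of 18. A length divisible by 3 was found in 5 of the 9 loci. EPB41L4A, HDGFL2, UBASH3B and AARS1 are also called loci, so this count is no separate evidence for them. First-exon and last-exon loci are not counted in this way here, so whether the 9 are particular to internal loci is not shown.

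**Figure D5:**
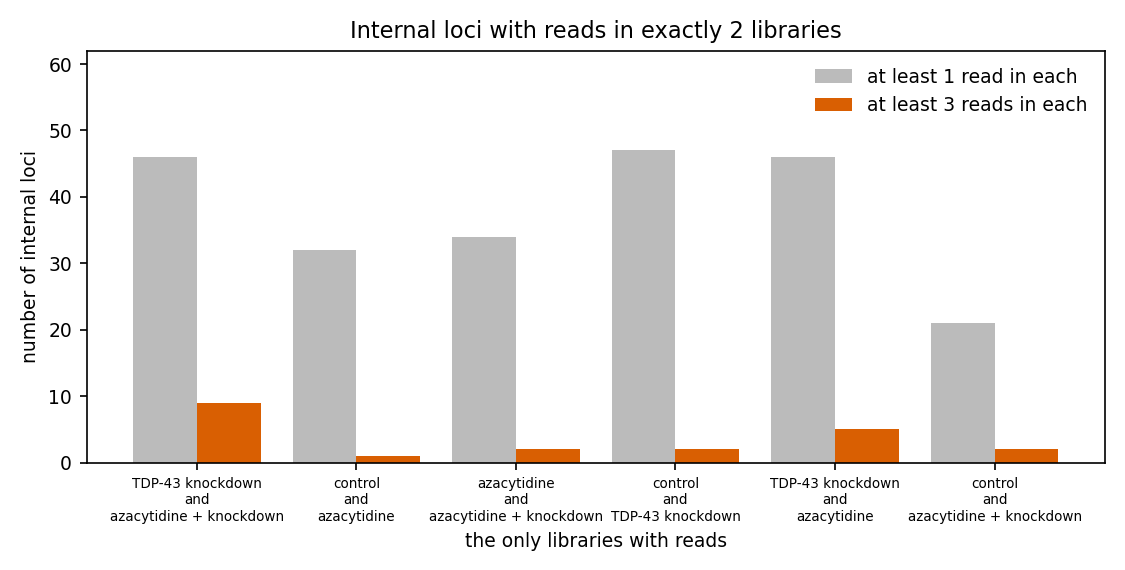
Number of internal loci with reads in exactly 2 of the 4 libraries, for each of the 6 pairs of libraries, at a minimum of 1 read or of 3 reads in each. At 1 read the pairs hold 21 to 47 loci. At 3 reads the knockdown and combined libraries hold 9 and the other pairs 1 to 5.

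Whether azacytidine changed internal loci was tested in the pairs azacytidine against control and combined against knockdown. Of 75 internal loci, 0 were called higher (0.0%) and 0 lower, and 1 and 0 when the Fisher's exact p was left unadjusted, beside 0.592% higher and 0.592% lower over all 169. The additive edgeR model gave 0 loci at an adjusted p under 0.05 and 7 at an unadjusted one. The median change was 0.00 points in the first pair and 4.99 in the second, close to the 0.00 and 4.64 over all 169 loci.

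Single pairs passed in several loci. In the first pair MAP7D2 alone passed, and in the second 5 were higher, in ELMO2, SEPTIN11, ZNF423, NUS1 and ENSG00000278730. NUS1, a gene of dolichol synthesis named after its values were seen, had a locus of 45 bases in 2 of 71, 0 of 80, 2 of 45 and 6 of 48 reads. ENSG00000278730, for which no symbol was matched, had a locus of 132 bases in an intron of a noncoding transcript, in 0 of 27, 3 of 34, 6 of 28 and 14 of 31 reads. It was higher with azacytidine by 21.4 points without the knockdown (adjusted p = 0.327) and by 36.3 points with it (adjusted p = 0.0204, Fisher's exact test).

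RMI1 and RBBP8, genes of DNA repair by homologous recombination, are named for the largest smaller change among loci not called. The RMI1 locus of 76 bases was in 2 of 24, 3 of 33, 7 of 16 and 4 of 12 reads, higher with azacytidine by 35.4 and 24.2 points. The RBBP8 locus of 38 bases was in 3 of 42, 8 of 41, 5 of 19 and 5 of 12 reads, higher by 19.2 and 22.2 points, a mean of 20.7 that was 10.6 against the gene table. Neither passed in either pair, and both genes had fewer reads with azacytidine than without it. Of the 75 loci, 37 had their highest share in the combined library (49.3%, 38.3 to 60.4), against 13 in the control, 12 in the knockdown and 13 in the azacytidine library. Among tested first-exon loci 16 of 57 were highest there, and among last-exon loci 16 of 36. Loci with reads in the knockdown and combined libraries alone, such as EPB41L4A and ZNF423, passed the read filter through them and could not be highest elsewhere. The 37 therefore give no direction for internal loci as a whole, and their interval treats loci as independent. The median share of the 75 loci was 11.5% in the control, 14.3% in the knockdown, 11.4% in the azacytidine and 19.2% in the combined library.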

How the data were processed

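Internal loci were taken from the deposited annotation, shared by the 4 libraries (hg38, per the submitters' processing notes). The deposited tables hold estimated counts per gene and transcript, estimated full-length counts, and counts of uniquely assigned reads. Read assignment by Bambu is named per the file headers, with settings not given in the sources used here. Every gene and unique count was even to within 0.001, for a reason the sources do not state, so all counts were divided by 2 and rounded. The estimated transcript counts, on which shares and tests rest, divide reads among transcripts and were even in 32.5% of nonzero values, and full-length counts in 90.4%. The members and gene lists were chosen with earlier results of these data known. Locus reads were tested against the gene's other transcript reads with a two-sided Fisher's exact test (SciPy 1.17.1), with Benjamini-Hochberg adjustment over 169 loci (statsmodels 0.14.6). On simulated data the rule recovered 6 of 15 loci raised by 30 points and 12 of 15 raised by 60, and called 0 of 139 others. An additive model (edgeR 4.0.16) was an alternative, and recovered 14 of 15 and 15 of 15 with 2 of 139 others. The simulated reads varied by counting error only, so these numbers do not cover other variation between libraries. Named by rule were called loci, loci of the TDP-43 list, the 10 with most reads, the 5 longest and 5 shortest with at least 10 reads, and the 5 with the largest smaller change among uncalled ones for each treatment. Intervals are 95% Wilson intervals, and 0 reads allow up to 3. Both leave out any error besides counting, and reads amplified from 1 molecule are not independent. Symbols matched 590 of 910 loci in the gene table used for gene types. Reading frames and introns came from GENCODE 29, whose transcripts agreed in 99.96% of 166654 shared identifiers. Exon sequence, repeats and motifs outside GENCODE 29 exons were not analysed here, and 1 locus under an identifier without strand was left out.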

Additional observations from a re-analysis of the deposited data

Results flagged for a closer look

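In several loci a treatment moved the share 1 way in the first pair of libraries and the opposite way in the second, and the difference between pairs was not tested. With 1 library in each arm, each value is a single difference in percentage points of the gene's transcript reads. For the knockdown, the ELMO2 locus changed by -5.40 points against the control and by 15.4 points under azacytidine. TMEM168 changed by -7.72 and 16 points, and MAP7D2 by 30.5 and -8.6. RMI1 changed by 0.758 and -10.4 points, ENSG00000293311 by -1.73 and 4.5, and ENSG00000293317 by -6.77 and 6.8. For azacytidine, the SEPTIN11 locus changed by -1.23 points against the control and by 18.3 under the knockdown. DPYSL3 changed by -4.93 and 6.6 points, and TMEM168 by -7.92 and 15.8.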

How the results depend on the processing

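Counts as deposited, not halved, gave 9 calls with the knockdown, adding CBR4, GPSM2, NADK2 and SHQ1, and 4 with azacytidine. Uniquely assigned counts gave 0 knockdown calls with 27 internal loci left to test, and full-length counts 0 with 12 left, where azacytidine had 1 (HNRNPLL). AARS1 and SEPTIN11 were still tested with uniquely assigned counts, and SEPTIN11 with full-length counts, so these calls were lost although the loci stayed in the test. A gene mean of at least 50 reads left 19 loci and 2 calls, and a change of at least 20 points 3 calls. The additive edgeR model gave 3 (4 internal loci with an adjusted p under 0.05, of which ZNF423 missed 10 points in the first pair). With the gene table as denominator azacytidine had 1 call, and the knockdown 5 with GPSM2 in place of AARS1, while the CBR4 change with azacytidine went from -17.9 to -3.6 points. Crosswise pairs gave 0 calls under each setting of the Fisher's exact test. Loci with at least 10 reads numbered 138, with a median of 102 bases and 44.2% multiples of 3. The share of reads, with libraries ordered control, knockdown, azacytidine and combined, was 0.336%, 0.321%, 0.406% and 0.485% by uniquely assigned counts, 0.416%, 0.386%, 0.476% and 0.567% by full-length counts, and 0.175%, 0.167%, 0.231% and 0.257% of the gene table. Without the called loci it was 0.266% with the knockdown and 0.391% with both treatments. At equal full-length depth the knockdown library had 263 loci. Where loci dropped out, fewer were tested, and otherwise the cause was not tested. No call and no named change turned its sign, but the control stood below the knockdown in the share of reads by estimated counts alone (0.275% and 0.286%). Among the values of single named loci, 124 kept direction and side of the threshold, 8 lost it and 5 gained it. Settings that changed only a filter, a threshold, the set of loci or the model reused the same counts for a locus. Its direction could not turn in them, so the 124 and the unturned signs are in part fixed in advance. No paired analysis was possible because each group holds a single replicate, number 1. Depth limits the locus tests: with 24 reads, as in the EPB41L4A control, 0 reads still allow a share of up to 12.5%.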
